A study of Mus musculus with 10 samples.

Results

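Receptor tyrosine kinase ligands are secreted or membrane-shed proteins that pair receptor kinases on the surface of neighbouring cells, and much of what those receptors do runs through the Ras to ERK cascade. DUSP6 is a cytoplasmic phosphatase that removes the activating phosphates from ERK, and its own transcription follows ERK activity, so it belongs to a feedback loop below these receptors. In the spleen such ligands are known for maintaining macrophages, blood vessels, stromal cells and blood-forming niches. The 10 ligand genes described here were Areg, Hbegf, Pdgfa, Pdgfb, Vegfa, Kitl, Csf1, Hgf, Igf1 and Fgf2. They were chosen by name, each matched 1 row of the deposited gene table, and they are 10 of the 54532 genes in it.

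Bulk RNA-seq was available from whole spleens of DUSP6 KO mice (5 spleens, strain Dusp6tm1Jmol) and of WT C57BL/6J mice (5 spleens). All 10 mice had KRN serum-induced arthritis (KSIA), a model in which autoantibody-containing serum from arthritic mice is transferred. Each received 100 µL of serum into the peritoneum on day 0 and again on day 2, and the spleen was taken on day 9, from mice that the methods put at 8 to 12 weeks of age. The labels word the mutant genotype as a knockdown and the methods as a knockout, and no spleen without serum was analysed here, so every value below describes arthritic animals. The Dusp6 loss is not limited to a cell type. Per the methods, both strains were purchased from the same supplier, and the use of littermate controls is not described.

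The libraries held between 14990474 and 19822673 reads counted in genes. Dusp6 itself was at 0.308 to 0.624 FPKM (fragments per kilobase of gene, scaled to library depth) in the DUSP6 KO spleens and at 16.6 to 24.0 FPKM in the WT spleens, so the targeted gene followed the labels. Of the 21296 genes that averaged 0.1 FPKM or more, 8 were higher and 7 lower in DUSP6 KO at an adjusted p of 0.05 or less (limma, Benjamini-Hochberg), which is 0.0704% of the genes tested. DUSP6 KO replicate 21 held the scaffold-placed copy of Ccl19 at 60.9 FPKM, against at most 0.184 FPKM in any other library, and WT replicate 67 carried pancreatic enzyme RNA, with 5 such genes summing to 6378 FPKM against at most 93.8 FPKM elsewhere. Ligand values that moved by more than 1.5 times without either library are given below.

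Csf1, the growth factor of macrophages, was the most abundant of the 10 ligands, with a mean of 17.7 ± 3.6 FPKM (SD over all 10 spleens). Kitl, which binds the Kit receptor of blood progenitors and mast cells, was next at 11.3 ± 1.9 FPKM and Vegfa, the main growth factor of blood vessels, at 10.5 ± 3.0 FPKM. These 2 neighbours overlapped, with Kitl above Vegfa in 8 of 10 spleens. Igf1, a growth factor that also circulates as a hormone, averaged 7.31 ± 1.33 FPKM and Pdgfb, a ligand for pericytes and smooth muscle, 6.64 ± 1.08 FPKM, with Igf1 above Pdgfb in 7 of 10 spleens. Pdgfa at 2.84 ± 0.43 FPKM and Hbegf at 2.44 ± 0.80 FPKM could not be ordered, since Pdgfa was above Hbegf in 5 of 10 spleens. Fgf2 followed at 1.59 ± 0.32 FPKM, below Hbegf in 8 of 10 spleens, and Hgf at 0.489 ± 0.153 FPKM. Areg was at the limit of detection. Csf1 was above Kitl, Vegfa above Igf1, Pdgfb above Pdgfa, Fgf2 above Hgf and Hgf above Areg in 10 of 10 spleens. All these levels are per base of 1 listed length for each gene. The ligands have 1 (Areg) to 13 (Vegfa) annotated transcripts, and which of them the spleens used was not tested. The order between genes is therefore approximate.

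The promoters of the least and of one of the most abundant members are shown because they carry the motif matches found among these genes. RefSeq promoters (GRCm38.p6, from 250 bases before to 50 bases after a start) were searched for 8 of the 10 ligands, 11 promoters in all. No promoter of Hbegf or Pdgfb was in the set searched, so the motif counts say nothing about these ligands. The letters searched, on both strands, were TGACTCA for AP-1, TGACGTCA for the cyclic AMP response element, CCGGAAG for ETS factors and TATAAA for the TATA box. Capitals mark the matches. Areg, at chr5:91139349-91139648 on the plus strand, held the cyclic AMP response element starting at position -61 and a TATA box at -31. Kitl, at chr10:100015571-100015870 on the plus strand, held the ETS letters at -77 and a TATA box at -25.
Areg: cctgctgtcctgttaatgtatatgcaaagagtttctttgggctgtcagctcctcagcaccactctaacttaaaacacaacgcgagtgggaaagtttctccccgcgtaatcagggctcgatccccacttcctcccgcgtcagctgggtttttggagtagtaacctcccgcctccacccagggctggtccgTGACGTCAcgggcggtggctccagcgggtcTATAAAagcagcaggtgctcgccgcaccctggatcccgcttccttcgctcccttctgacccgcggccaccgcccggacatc
Kitl: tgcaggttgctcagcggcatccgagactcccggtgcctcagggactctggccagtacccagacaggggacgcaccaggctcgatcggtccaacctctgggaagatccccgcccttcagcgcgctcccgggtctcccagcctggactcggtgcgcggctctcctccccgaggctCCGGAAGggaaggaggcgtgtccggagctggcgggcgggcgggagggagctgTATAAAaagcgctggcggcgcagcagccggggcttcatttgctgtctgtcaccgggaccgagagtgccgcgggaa
Among 32851 mouse promoters of this length, 1.79% held the cyclic AMP response element, 8.86% the ETS letters and 13.6% the TATA letters. The AP-1 letters were in 5.20% of them and in 0 of the 11 ligand promoters, which says only that these letters are not in these windows.

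Between genotypes, Hbegf was the 1 ligand of 9 tested that was higher in the DUSP6 KO spleens with an unadjusted p under 0.05, and 0 were lower. Over all genes tested, 2.62% were higher and 3.03% lower by the same threshold. Adjusted over all genes, 0 of the 9 ligands passed (limma, smallest adjusted p = 0.62). The log2 fold change, on log2(FPKM + 0.1), was positive for 8 ligands and negative for Hgf, with a median of 0.09 against -0.0046 over all genes. In 0 of the 9 were the groups free of overlap, where 0.549% of all genes had every DUSP6 KO spleen above every WT spleen and 0.563% the reverse. In bulk tissue, fewer cells of a type and less RNA per cell cannot be told apart, and this holds for each value below.

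**Figure D1:**
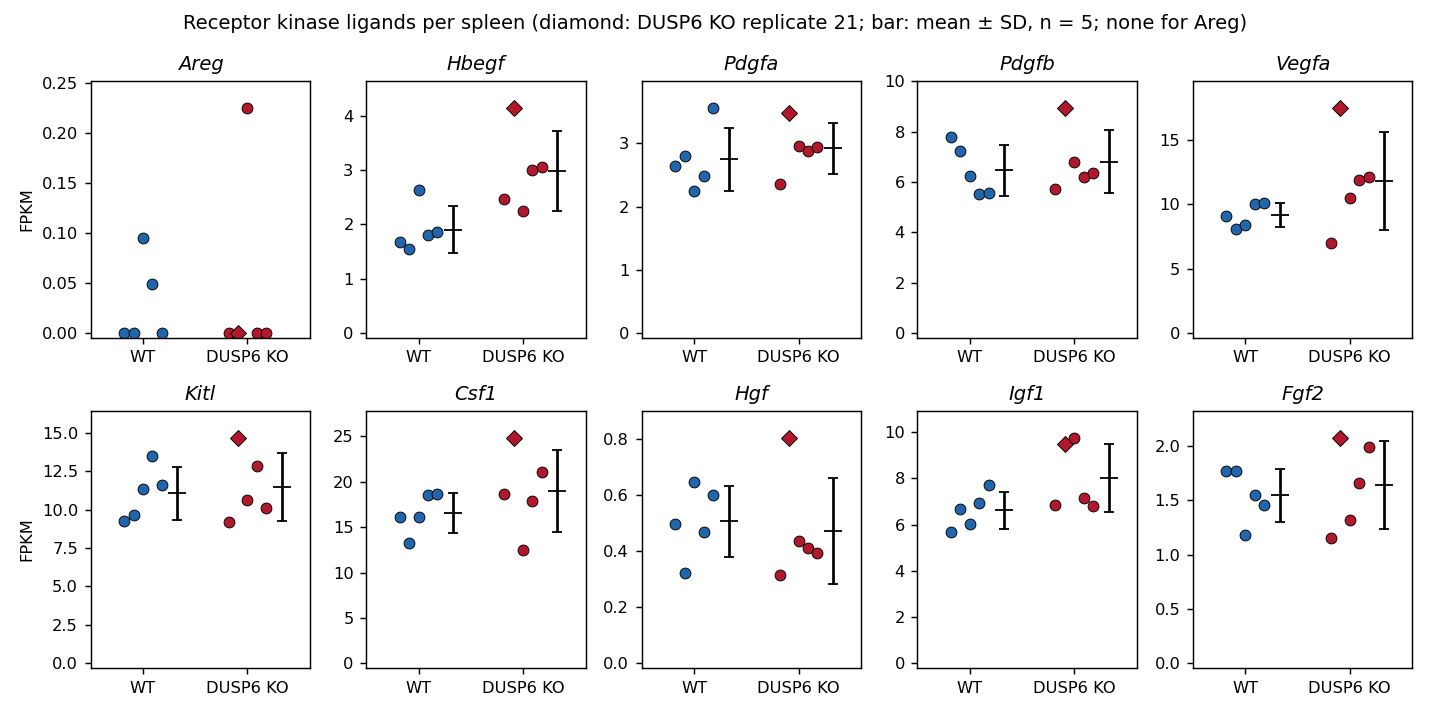
FPKM (vertical axes, from 0) of the 10 ligands in each of 5 WT spleens (blue) and 5 DUSP6 KO spleens (red), with mean ± SD beside the points except for Areg, which most libraries list at 0. The diamond is DUSP6 KO replicate 21, the highest point for 7 ligands, and Hbegf has 3 DUSP6 KO spleens above the highest WT spleen.

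Hbegf and Areg are the members that bind the EGF receptor. Hbegf, a membrane-anchored factor that is released by shedding and that also binds ErbB4, lies at chr18:36504929-36515805 on the minus strand (GRCm38). Its FPKM in DUSP6 KO replicates 26, 21, 73, 01 and 03 was 2.46, 4.14, 2.24, 3.0 and 3.05, and in WT replicates 65, 67, 73, 77 and 83 it was 1.68, 1.55, 2.64, 1.80 and 1.86. All 5 DUSP6 KO spleens were above the WT mean and 3 were above the highest WT spleen, WT replicate 73, which itself exceeded 2 of the DUSP6 KO spleens. The means were 2.98 ± 0.74 and 1.90 ± 0.43 FPKM (SD, n = 5 each). This is a log2 fold change of 0.61 (SE 0.19, 95% interval 0.19 to 1.03), or 1.53-fold with an interval of 1.14 to 2.04. limma gave an unadjusted p of 0.0084 and an adjusted p of 0.62, and 1.34% of the genes tested had a lower p. An exact two-sided permutation test gave p = 0.024, where 252 arrangements allow no p below 0.0079. The values rest on 68 to 191 reads per library. Without DUSP6 KO replicate 21 the log2 fold change was 0.49 (limma, unadjusted p = 0.019, adjusted p = 0.61).

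Areg, amphiregulin, is an EGF receptor ligand known from lymphoid and mast cells at barrier sites. It was counted with 4 reads in DUSP6 KO replicate 73, 2 reads in WT replicate 73, 1 read in WT replicate 77 and 0 reads in the other 7 spleens. A count of 0 allows up to 3 reads, which is 0.114 to 0.169 FPKM in these libraries. Areg did not reach the minimum mean of 0.1 FPKM, so it was not tested and no fold is given.

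Among the PDGF and VEGF members, which share a cystine-knot fold, Vegfa had the widest spread. Its FPKM in the DUSP6 KO spleens, in the order given for Hbegf, was 6.98, 17.5, 10.5, 11.9 and 12.2, and in the WT spleens 9.12, 8.08, 8.38, 10.1 and 10.1. The DUSP6 KO spleens lay on both sides of the WT range, with 4 above every WT spleen and replicate 26 below every one. The means were 11.8 ± 3.8 and 9.15 ± 0.94 FPKM, a log2 fold change of 0.31 with a 95% interval of -0.13 to 0.75. limma gave an unadjusted p of 0.15 and an adjusted p of 0.95, and without DUSP6 KO replicate 21 the log2 fold change was 0.15. Without DUSP6 KO replicate 26 it was 0.48 (limma, unadjusted p = 0.0090), so that a single low spleen decided on which side of the unadjusted threshold Vegfa fell.

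Pdgfa, which acts on PDGF receptor alpha of fibroblast-like cells, ranged from 2.35 to 3.48 FPKM in the DUSP6 KO spleens and from 2.25 to 3.56 FPKM in WT, so the WT range covered every DUSP6 KO spleen. Its log2 fold change was 0.09, with a 95% interval of -0.23 to 0.41. It was 0.028 without DUSP6 KO replicate 21, 0.026 without WT replicate 73 and 0.19 without WT replicate 83. Pdgfb ranged from 5.73 to 8.94 FPKM in the DUSP6 KO spleens and from 5.52 to 7.77 FPKM in WT, with 1 DUSP6 KO spleen above the highest WT spleen. Its log2 fold change was 0.07 (95% interval -0.24 to 0.38), -0.032 without DUSP6 KO replicate 21 and 0.11 without WT replicate 67. An antisense gene, 6330403L08Rik, overlaps Pdgfa and was counted with 25 to 105 reads beside 121 to 211 for Pdgfa, and the strand setting of the counting is not given in the sources used here.

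Csf1 and Kitl act on the related class III receptors Csf1r and Kit. Csf1 was at 18.6, 24.8, 12.5, 17.9 and 21.1 FPKM in the DUSP6 KO spleens and at 16.1, 13.3, 16.1, 18.6 and 18.6 FPKM in the WT spleens. The lowest and the highest of the 10 spleens were both DUSP6 KO, and the log2 fold change was 0.17 (95% interval -0.20 to 0.55, limma unadjusted p = 0.33). It was 0.07 without DUSP6 KO replicate 21, 0.096 without WT replicate 67 and 0.31 without DUSP6 KO replicate 73 (limma, unadjusted p = 0.035). Kitl was at 9.22, 14.6, 10.6, 12.8 and 10.1 FPKM in the DUSP6 KO spleens and at 9.24, 9.62, 11.3, 13.5 and 11.6 FPKM in WT. The groups lay over each other, with a log2 fold change of 0.05 (95% interval -0.27 to 0.37, limma unadjusted p = 0.75), which became -0.045 without DUSP6 KO replicate 21 and 0.00074 without WT replicate 67.

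Igf1, Hgf and Fgf2 signal through receptors of separate families. Igf1 was at 6.87, 9.46, 9.73, 7.14 and 6.79 FPKM in the DUSP6 KO spleens and at 5.70, 6.67, 6.04, 6.94 and 7.72 FPKM in WT. Every DUSP6 KO spleen was above the WT mean of 6.61 ± 0.79 FPKM, and 2 were above the highest WT spleen. The log2 fold change was 0.26 (95% interval -0.03 to 0.55), with a limma unadjusted p of 0.078 and an adjusted p of 0.94. The unadjusted p was 0.049 without DUSP6 KO replicate 03 and 0.047 without WT replicate 83, and 0.17 without DUSP6 KO replicate 21.

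Hgf, the scatter factor that binds Met, was at 0.313, 0.802, 0.437, 0.411 and 0.394 FPKM in the DUSP6 KO spleens and at 0.496, 0.321, 0.645, 0.469 and 0.598 FPKM in WT. Of the DUSP6 KO spleens, replicate 21 alone was above the WT mean, and it was also above every WT spleen. The log2 fold change was -0.11 (95% interval -0.69 to 0.47), and -0.29 without replicate 21 (limma, unadjusted p = 0.25) and -0.24 without WT replicate 67, on 42 to 112 reads per library. Fgf2, a heparin-binding factor without a classical secretion signal, ranged from 1.15 to 2.07 FPKM in the DUSP6 KO spleens and from 1.18 to 1.77 FPKM in WT. Its log2 fold change was 0.06 (95% interval -0.36 to 0.48), -0.027 without replicate 21 and 0.11 without WT replicate 67. Nudt6 is transcribed from the opposite strand across Fgf2 and was counted with 34 to 70 reads beside 131 to 273 for Fgf2.

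The 10 spleens differed in the ligands as a group mainly through DUSP6 KO replicate 21. It had the highest value of all 10 spleens for 7 of the 9 tested ligands and the second highest for Igf1 and Pdgfa, while 15.3% of all genes tested were highest in it. Its level over the median of the other 9 spleens was between 1.24-fold for Pdgfa and 1.85-fold for Hbegf. Replicate 21 also had the highest summed FPKM for the lists described below, so this was not particular to these ligands. The sums were 241 for the receptors (at most 208 in the other spleens) and 137 for further ligand family genes (at most 126). They were 1280.5 for shedding and binding genes (at most 1209) and 106 for ERK feedback genes (at most 99.4). DUSP6 KO replicate 26 was the lowest for 4 of the 9 ligands, where 17.4% of all genes were lowest in it. The FPKM of the 10 ligands summed to 65.1 ± 12.4 in DUSP6 KO and 56.6 ± 4.3 in WT (SD, n = 5 each), with replicate 21 at 85.8 and the other DUSP6 KO spleens at 53.7 to 64.9. Without replicate 21, 5 of the 9 log2 fold changes were positive, and Hbegf was still the 1 ligand at an unadjusted p under 0.05, with 2.65% of all genes higher by that threshold.

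**Figure D2:**
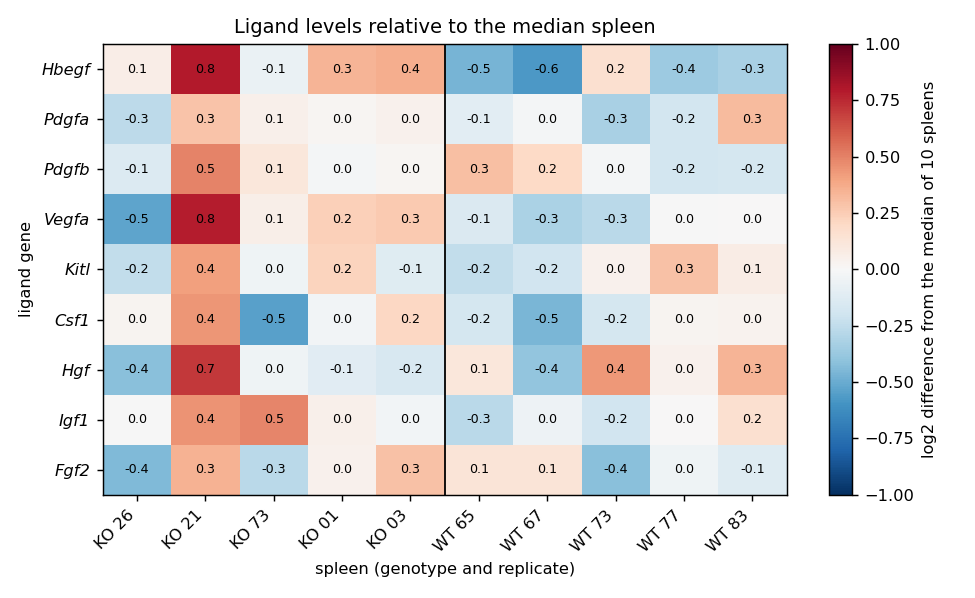
Each cell is the log2(FPKM + 0.1) of a ligand (rows, without Areg) in a spleen (columns, 5 DUSP6 KO left of the line and 5 WT right of it) minus the median of the 10 spleens. The column of DUSP6 KO replicate 21 is above the median for all 9 ligands shown, and in the Hbegf row 4 of 5 DUSP6 KO spleens and 1 of 5 WT spleens are above it.

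**Figure D3:**
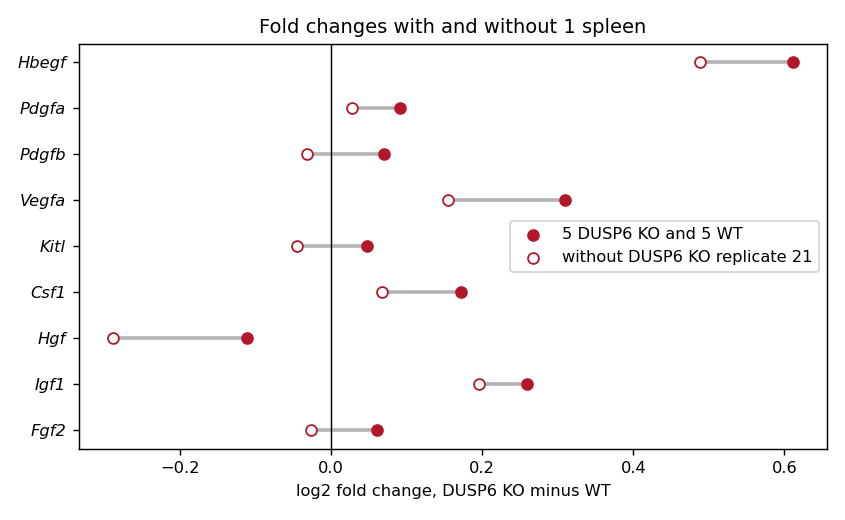
Log2 fold change (horizontal axis, DUSP6 KO minus WT) of the 9 tested ligands with all 10 spleens (filled) and without DUSP6 KO replicate 21 (open). All 9 values move down, Pdgfb, Kitl and Fgf2 pass below 0, and Hbegf goes from 0.61 to 0.49.

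Some cell type markers differed between these libraries and, at the unadjusted threshold, between genotypes. None of the markers passed after adjustment. Replicate 21 had the highest sum over 6 endothelial markers (90.0 FPKM, against 53.3 to 83.5 FPKM in the other spleens), the second highest over 10 markers of reticular and other stroma (294 FPKM), and the lowest over 5 erythroid markers (17609 FPKM, against 21903 to 90665 FPKM in the other spleens). By genotype, against 2.62% of all genes higher and 3.03% lower, 2 of 6 endothelial and 2 of 10 stromal markers were higher in the DUSP6 KO spleens at an unadjusted p under 0.05, with sums of 62.7 to 90.0 FPKM against 53.3 to 83.5 FPKM and 186 to 295 FPKM against 181 to 225 FPKM. Of the red pulp macrophage markers 2 of 5 were higher, with sums of 459 to 801 FPKM in the DUSP6 KO spleens and 505 to 649 FPKM in WT. Of the neutrophil markers 5 of 7 were lower, with sums of 503 to 1732 FPKM in the DUSP6 KO spleens and 987 to 4538 FPKM in WT, and of the basophil and mast cell markers 3 of 6 were lower and 1 higher (8.64 to 14.0 against 14.4 to 42.7 FPKM). Of the megakaryocyte and platelet markers 2 of 4 were lower (209 to 297 against 199 to 468 FPKM). In the other lists 0 markers were called in either direction: 4 of B cells, 5 of T cells, 5 erythroid, 4 mesothelial and 5 of exocrine pancreas. The median log2 fold change of the red pulp macrophage list was 0.07. The neutrophil count was 2 of 7 without DUSP6 KO replicate 21 and 7 of 7 without WT replicate 67, and the endothelial counts were 1 and 3 of 6. Of all genes, 4.40% were lower and 2.65% higher without DUSP6 KO replicate 21, and 2.63% and 2.64% without WT replicate 67. None of the markers of these lists was at 0 in all spleens, and their part in the ligand values was not tested. Pdgfrb, 1 of the 2 stromal markers called, and the endothelial marker Kdr are also counted among the receptors below. Stab2, 1 of the 2 endothelial markers called (log2 fold change 0.30), and the stromal marker Dcn (-0.55) lie in the chromosome 10 window around Dusp6 described below.

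On the receptor side, 15 of 16 receptor genes of these ligands and their co-receptors were tested, and 2 were higher and 0 lower in the DUSP6 KO spleens at an unadjusted p under 0.05, with a median log2 fold change of 0.08. The shares over all genes were 2.62% higher and 3.03% lower. The median was 0.019 without DUSP6 KO replicate 21, with 2 receptors higher and Flt1 lower (log2 fold change -0.29). In that fit 2.65% of all genes were higher and 4.40% lower. Csf1r, the receptor of Csf1 on macrophages, was at 139, 180, 164, 136 and 149 FPKM in the DUSP6 KO spleens and at 123, 133, 122, 96.8 and 117 FPKM in the WT spleens. Every DUSP6 KO spleen was above every WT spleen, and the log2 fold change was 0.38 (95% interval 0.13 to 0.62, limma unadjusted p = 0.0059, adjusted p = 0.56). Pdgfrb, the receptor of Pdgfb on pericytes and stromal cells, was at 8.27, 17.1, 10.8, 12.4 and 13.3 FPKM in the DUSP6 KO spleens and at 9.01, 7.25, 8.19, 8.05 and 8.12 FPKM in WT. In 4 DUSP6 KO spleens it was above every WT spleen, and the log2 fold change was 0.57 (95% interval 0.20 to 0.93, limma unadjusted p = 0.0059, adjusted p = 0.56). Without DUSP6 KO replicate 21 it was 0.44 for Pdgfrb and 0.32 for Csf1r (limma, adjusted p = 0.50 and 0.57). The ligands of both, Csf1 and Pdgfb, had the intervals given above, which include 0. Erbb4, which also takes up Hbegf, was counted with 4 reads in 1 DUSP6 KO spleen and 0 reads in the other 9.

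**Figure D4:**
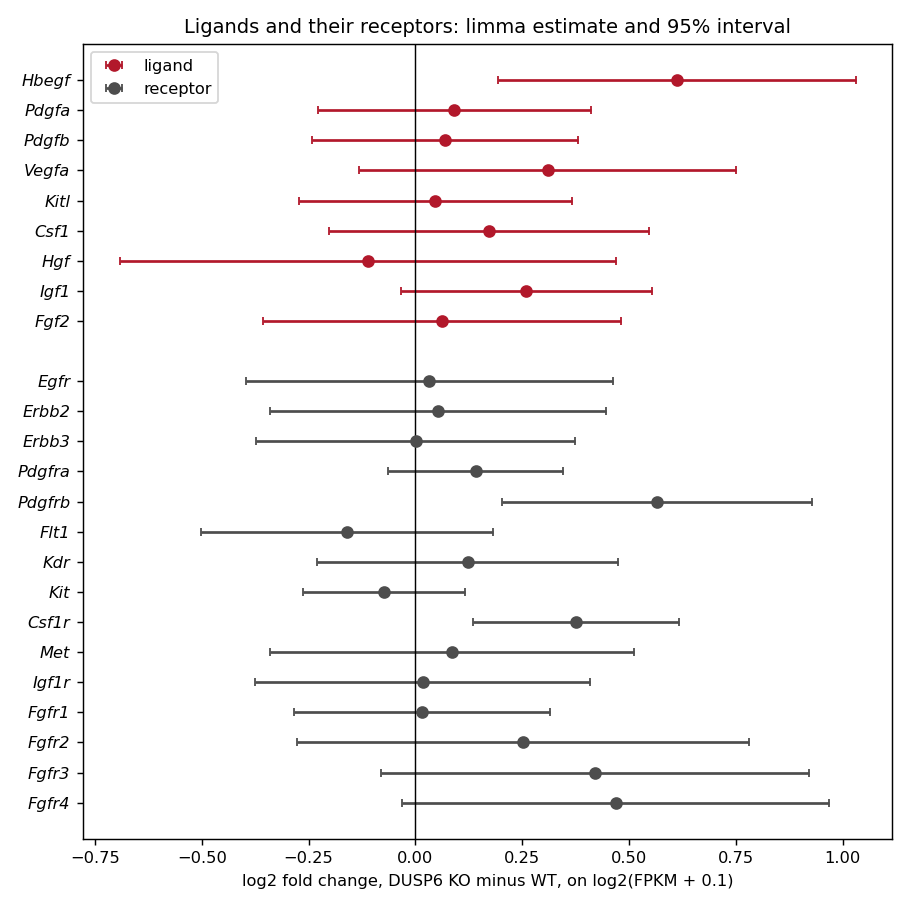
Log2 fold change on log2(FPKM + 0.1), DUSP6 KO minus WT, with the limma 95% interval, for the 9 tested ligands (red) and 15 tested receptors (grey). The intervals of Hbegf, Pdgfrb and Csf1r lie above 0, and all others include it.

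Ligand and receptor RNA stood in a fixed order in most pairs. Vegfa was above Flt1 and Kdr, Kitl above Kit, Igf1 above Igf1r and Hbegf above Egfr in 10 of 10 spleens, per base of gene length. Csf1 was below Csf1r, Pdgfb below Pdgfrb, Pdgfa below Pdgfra, Hgf below Met and Fgf2 below Fgfr1 in 10 of 10 spleens. The log2 ratio of Csf1 to Csf1r was -3.04 ± 0.38 in DUSP6 KO and -2.83 ± 0.35 in WT (SD over the 5 spleens of each), the lowest of the pairs compared. That of Pdgfb to Pdgfrb was -0.83 ± 0.23 and -0.33 ± 0.23, and that of Vegfa to Flt1, a receptor that also acts as a decoy, was 2.35 ± 0.22 and 1.88 ± 0.10. These ratios are given without a test, and they too rest on 1 listed length for each gene.

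Of 63 further genes of receptor kinase ligand families in the table, 42 were tested. At an unadjusted p under 0.05, 1 was higher and 3 were lower, and the median log2 fold change was -0.0024. Over all genes, 2.62% were higher and 3.03% lower, so the share of higher genes in this list was near that of all genes. Without DUSP6 KO replicate 21 the counts were 0 and 3, beside 2.65% and 4.40% of all genes. Without WT replicate 67 they were 1 and 1, beside 2.64% and 2.63%. Efnb1, a membrane-bound ephrin, had a log2 fold change of 0.33 (95% interval 0.05 to 0.62). Pdgfc, another PDGF gene, averaged 0.774 ± 0.084 FPKM in the DUSP6 KO spleens and 1.18 ± 0.24 FPKM in the WT spleens, a log2 fold change of -0.53 (95% interval -0.92 to -0.14, limma adjusted p = 0.71), against values of 0.09 for Pdgfa and 0.07 for Pdgfb. Fgf13, an intracellular FGF homologue counted here with its family, had -0.44. Pspn, a ligand of the GDNF family, had -0.80 (95% interval -1.55 to -0.04) on only 2 to 12 reads per library. The limma unadjusted p of Pspn was 0.040 with all spleens, 0.095 without DUSP6 KO replicate 21 and 0.067 without WT replicate 67. For Fgf13 these were 0.038, 0.046 and 0.078. None of the 42 passed after adjustment.

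Of 37 genes for the shedding, binding and co-reception of these ligands, 35 were tested, 2 were higher and 1 lower at an unadjusted p under 0.05, and the median log2 fold change was 0.12. Beside 2.62% and 3.03% of all genes, the share of lower genes in the list was near that of all genes. Without DUSP6 KO replicate 21, 1 was higher and 2 were lower, with a median of 0.031, beside 2.65% and 4.40% of all genes. Without WT replicate 67 the counts were 3 and 0, beside 2.64% and 2.63%. Sparc, a matrix protein that binds PDGF and VEGF, averaged 127 ± 26.5 FPKM in the DUSP6 KO spleens and 75.3 ± 6.3 FPKM in the WT spleens, with all 5 DUSP6 KO spleens above every WT spleen and a log2 fold change of 0.73 (limma, unadjusted p = 0.00037, adjusted p = 0.25), or 0.77 without DUSP6 KO replicate 21. The paper had already listed Sparc as increased in these same spleens, significant after adjustment in its own test (DESeq2 on read counts). Nrp2, a co-receptor of VEGF family ligands, had a log2 fold change of 0.35. Igfbp6, an IGF-binding protein, had -1.08 (95% interval -2.06 to -0.10) between groups that overlapped.

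Of 15 genes known as ERK-induced feedback and target genes, 14 were tested, 5 were higher at an unadjusted p under 0.05, and Dusp6 was lower and alone passed after adjustment (limma, adjusted p = 1.3e-07). Over all genes, 2.62% were higher and 3.03% lower at that threshold. The 5 were the feedback inhibitors Spry1 (log2 fold change 1.04), Spry4 (0.74) and Spry2 (0.55) and the transcription factors Fos (0.94) and Etv5 (0.47), with adjusted p between 0.24 for Spry1 and 0.75 for Etv5 (limma). For Spry1, Spry4, Spry2 and Fos every DUSP6 KO spleen was above every WT spleen, as for 0.549% of all genes. The count of 5 was also 5 without DUSP6 KO replicate 21, 7 without WT replicate 67 and 4 without both. In those fits 2.65%, 2.64% and 2.53% of all genes were higher. The log2 fold change of Fos was 0.72 without DUSP6 KO replicate 21. The median log2 fold change of the 14 was 0.27, beside 0.09 for the ligands. The paper had already reported Sprouty genes, Spry1 and Spry4 among them, as increased in these same spleens, and Dusp6 is the altered gene itself. In the paper's test, DESeq2 on read counts, Spry1 and Spry4 had an adjusted p under 0.05, unlike in limma on FPKM here. The count is therefore not independent of that report.

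Kitl and Igf1 share chromosome 10 with the altered Dusp6 gene. Kitl lies 0.748 Mb from Dusp6, with 15 listed genes between them, of which 1 is protein-coding (Csl, at most 0.031 FPKM) and 3 were tested. Igf1 lies 11.3 Mb away on the other side. From 12.5 Mb before to 2.5 Mb after Dusp6, 103 other genes were tested, 10 of them had an unadjusted p under 0.05, where the share over all genes was 5.66%, and 2 passed after adjustment (Lta4h and Gm15915, limma). Neither ligand was among the 10. How much of the chromosome around the altered gene comes from the strain in which it was made was not tested.

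**Figure D5:**
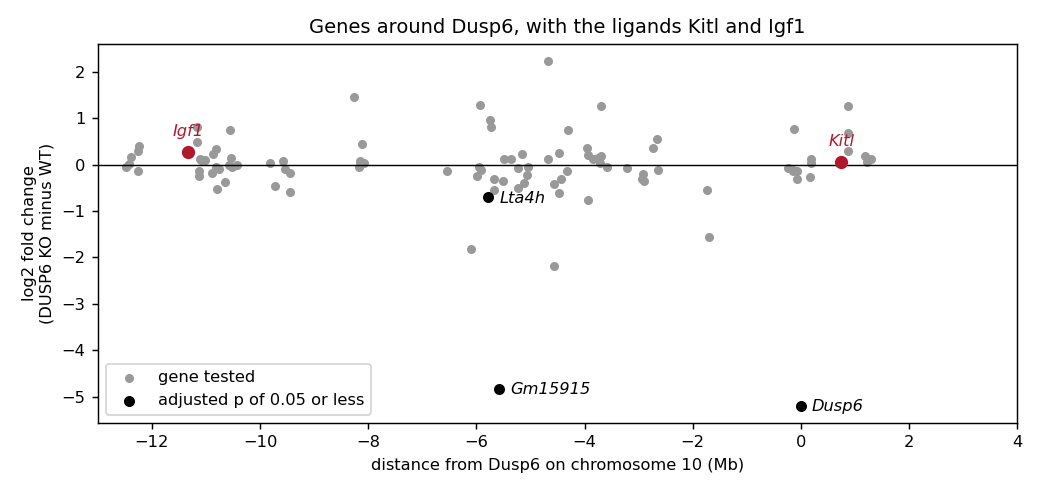
Log2 fold change (vertical axis, DUSP6 KO minus WT) of each tested gene against its distance in Mb from Dusp6 on chromosome 10 (horizontal axis). Kitl and Igf1 (red) are at 0.05 and 0.26, and the genes at an adjusted p of 0.05 or less (black) are Dusp6, Gm15915 and Lta4h.

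The genes whose log2 levels ran most closely with a ligand over the 10 spleens were taken from 13422 genes that averaged 1 FPKM or more. For Hbegf they were Mmp23 (Pearson r = 0.93), Tlx1, a transcription factor of spleen stroma (0.93), and Creld1 (0.92). For Vegfa they were Sorbs2 (0.98), Dse (0.98) and Ppfibp1 (0.97), for Kitl Nacc2 (0.94), for Csf1 Abi3bp (0.94), for Igf1 Frmd4b (0.93) and for Fgf2 B3gntl1 (0.96). Without DUSP6 KO replicate 21, r was 0.88 for both Mmp23 and Tlx1 with Hbegf and 0.97 for Sorbs2 with Vegfa. These values are descriptions over 10 libraries of 2 genotypes, each with the same depth and cell makeup behind both genes, and each was picked as the highest of many.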

How the data were processed

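Per the labels and the methods, spleen RNA was sequenced, reads were aligned with Hisat2 2.0.5 and counted per gene with featureCounts 1.5.0-p3, and the authors deposited FPKM values. Gene coordinates in the table were identical to GENCODE M21 (GRCm38) for 98.3% of 54409 matched genes, although the submitters' processing notes name hg38. FPKM times gene length gave whole reads for 100% of values (tolerance 0.001), and these are the reads printed. The depth the authors divided by was 0.949 to 1.12 times the summed gene reads, and how it was set is not given in the sources used here.

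FPKM were tested as log2(FPKM + 0.1) with limma 3.58.1 (trend, R 4.3.3) on the 21296 genes that averaged 0.1 FPKM or more, 5 DUSP6 KO against 5 WT spleens, with Benjamini-Hochberg adjustment over all of them. The fitted fold change understates that of low genes. Single genes were also tested with exact permutation tests. The script was checked on simulated data. A threshold of 0.05 was used. The fit was repeated with a pseudocount of 0.01 or 1, with 1 FPKM or nothing as the minimum, median centring, quantile normalization, depth recomputed after dropping mitochondrial, haemoglobin and antigen receptor genes, no trend, voom on the recovered reads, each spleen left out and, chosen after seeing the data, depth set to the summed reads and 2 spleens left out together. All 10 ligands are named, from other lists the genes at an unadjusted p under 0.05, and for likeness the 3 genes of highest r, of which some are printed. Receptors printed in pairs and genes near Dusp6 were named for their place. The members and lists were chosen with earlier results of these data known. RefSeq supplied the promoters.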

Additional observations from a re-analysis of the deposited data

Results flagged for a closer look

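In 22 groups of 5 spleens (each of the 10 ligands and their sum in each genotype), 3 held a spleen whose gap to the nearest other exceeded Dixon's 95% critical value. The rate of about 1 in 20 holds for independent, normally distributed groups, whereas these groups share spleens. For Hbegf, WT replicate 73 was at 2.64 FPKM and the other WT spleens were at 1.55 to 1.86 FPKM. For Hgf, DUSP6 KO replicate 21 was at 0.802 FPKM and the other DUSP6 KO spleens were at 0.313 to 0.437 FPKM. For Areg, DUSP6 KO replicate 73 was at 0.225 FPKM, which is 4 reads, and the other DUSP6 KO spleens were at 0. With all others at 0, any count above 0 gives this flag, so it carries no weight.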

How the results depend on the processing

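Over 21 alternatives, the log2 fold change of Hbegf stayed between 0.42 and 0.73 with a limma unadjusted p between 0.0024 and 0.041, and voom on the recovered reads called 7 genes higher and 8 lower. Hgf was not tested at a minimum mean of 1 FPKM. The 8 genes higher and 7 lower after adjustment became 4 lower at a minimum mean of 1 FPKM, 4 higher and 4 lower with no minimum, and 16 higher without both DUSP6 KO replicate 21 and WT replicate 67 (an alternative chosen after seeing the data). Leaving out each spleen in turn gave 6 to 21 genes higher (21 without DUSP6 KO replicate 21) and 4 to 13 lower (13 without DUSP6 KO replicate 21, 4 without WT replicate 83), and 1 to 2 ligands higher at an unadjusted p under 0.05, with 0 lower. Signs turned for Pdgfb (-0.032 to 0.14 as each spleen was left out, the lowest without DUSP6 KO replicate 21), for Kitl (-0.045 to 0.12, with -0.045 without DUSP6 KO replicate 21 and -0.014 without WT replicate 65), and for Fgf2 (-0.027 to 0.17, with -0.027 without DUSP6 KO replicate 21, -0.013 without DUSP6 KO replicate 03 and -0.026 without WT replicate 73). Without both DUSP6 KO replicate 21 and WT replicate 67, Kitl was at -0.091, Csf1 at -0.0089, Hgf at -0.41 (unadjusted p = 0.096, limma), Vegfa at 0.11, Pdgfa at 0.039, Pdgfb at 0.012 and Fgf2 at 0.023. Pdgfa ran from 0.026 to 0.19 as each spleen was left out. The cause was not tested. No paired analysis was possible because the replicate numbers of the groups share only 73. Depth limits Areg, with at most 4 reads, and leaves Hgf with 42 to 112 and Hbegf with 68 to 191 reads per library.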
